A study of Mus musculus with 10 samples.

Results

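The comparison described here sets mutant lung epithelial cells, 2 weeks after induction, against wildtype cells of lungs that hold no mutant cells. It takes 4 of the 10 libraries of the series: Red2Kras 2w RFP replicates 1 and 2 (mutant), Confetti RFP and Confetti YFP (wildtype, 1 library each). Barcodes were kept with at least 1000 genes, at most 50000 unique molecular identifiers (UMIs), at most 15% mitochondrial UMIs and no UMI of Ptprc, the gene of the leukocyte antigen CD45, which left 14960 of 20867 barcodes in these libraries, out of 30599 kept in the series. Counts were summed per library and compared gene by gene over 14050 genes and 54 gene lists.

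The mice carried Sftpc-CreERT2, in which the promoter of the surfactant protein C gene drives a tamoxifen-inducible Cre recombinase in alveolar type 2 (AT2) cells. In Sftpc-CreERT2; R26R-Confetti mice the recombined cells turn on 1 of several fluorescent proteins and stay wildtype. In Sftpc-CreERT2; Red2Kras mice the RFP+ cells are the mutant cells, whereas cells that turn YFP+ in those lungs remain wildtype. Both lines had a mixed genetic background (C57BL/6Brd-Tyrc-Brd), were induced as adults of 8 weeks with the same bulk tamoxifen dosage, and EpCAM+ cells of 1 colour were sorted from at least 2 pooled lungs per library, according to the methods of the study. For Confetti no time stands in the labels, and the methods place the harvest at 2 weeks.

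AT2 cells make and store surfactant and are the stem cells of the alveolus. Growth factor receptors signal through RAF and MEK to the kinase ERK. ERK turns on transcription factors and growth genes, together with the phosphatases that dampen it. After injury, AT2 cells pass through a keratin-rich transitional state, known as damage-associated transient progenitors (DATPs), on the way to flat alveolar type 1 (AT1) cells.

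The libraries of the 2 groups differed in depth and sex. The median depth per kept barcode was 4000.5 UMIs for Confetti RFP, 3251 for Confetti YFP, 15685 for mutant replicate 1 and 13199 for replicate 2, and the sums without mitochondrial genes were 16118607, 14011062, 69881952 and 39107666 UMIs. The labels give the v2 droplet chemistry for every library and the methods v3, so the version is uncertain. Cells of known sex were all female in both Confetti libraries, 35.4% female in mutant replicate 1 and 0.0512% in replicate 2, so mouse line and sex cannot be told apart from the mutation. The Ptprc filter removed 1.66% and 1.34% of Confetti barcodes and 3.51% and 19.8% of mutant barcodes. No pair of these libraries shared more than 11 kept barcodes. The methods count Confetti as 1 sample from which both colours were isolated, so the spread between Confetti RFP and YFP may be technical only. The sampling-scaled difference between libraries of a group (chi-square per degree of freedom over genes) was 21.3 for the Confetti pair and 194 for the mutant pair.

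With edgeR's quasi-likelihood test on these 4 libraries, 3548 of 14050 genes (25.3%) passed an adjusted p of 0.05, 2056 higher (14.6%) and 1492 lower (10.6%) in mutant cells. At an unadjusted p under 0.05 there were 5997. This count depended on which libraries estimated the spread: 237 genes passed without Confetti RFP and 244 without Confetti YFP, against 7921 and 6580 without mutant replicate 1 or 2, where the lone mutant library is assumed to vary as the Confetti pair does. When the Confetti libraries were not used as replicates of each other, 188 genes (1.27%) passed over the 6 libraries of the 2-week harvest and 3 (0.0202%) over all 10 libraries, and all of these were among the 3548 and had the same sign. Those fits leave out the replicate number that the RFP and YFP libraries of Red2Kras share, and with it as a block the fit of 10 libraries gave 2163 genes, 1964 of them among the 3548. A gene is said here to have risen or fallen when it passed in the 4-library test. A list counts only members that passed the count filter, and a gene near 0 in Confetti passes that filter only through the mutant libraries. The groups did not overlap for 73.6% of all genes (36.6% with both mutant libraries higher and 37% with both lower), which is the background for any such statement on a single gene. Of the 3548 genes, 929 differed by less than 1 on the log2 scale, 1512 by 1 to 2, 824 by 2 to 4 and 283 by more than 4, against a median absolute log2 fold change of 0.592 over all genes tested.

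**Figure D1:**
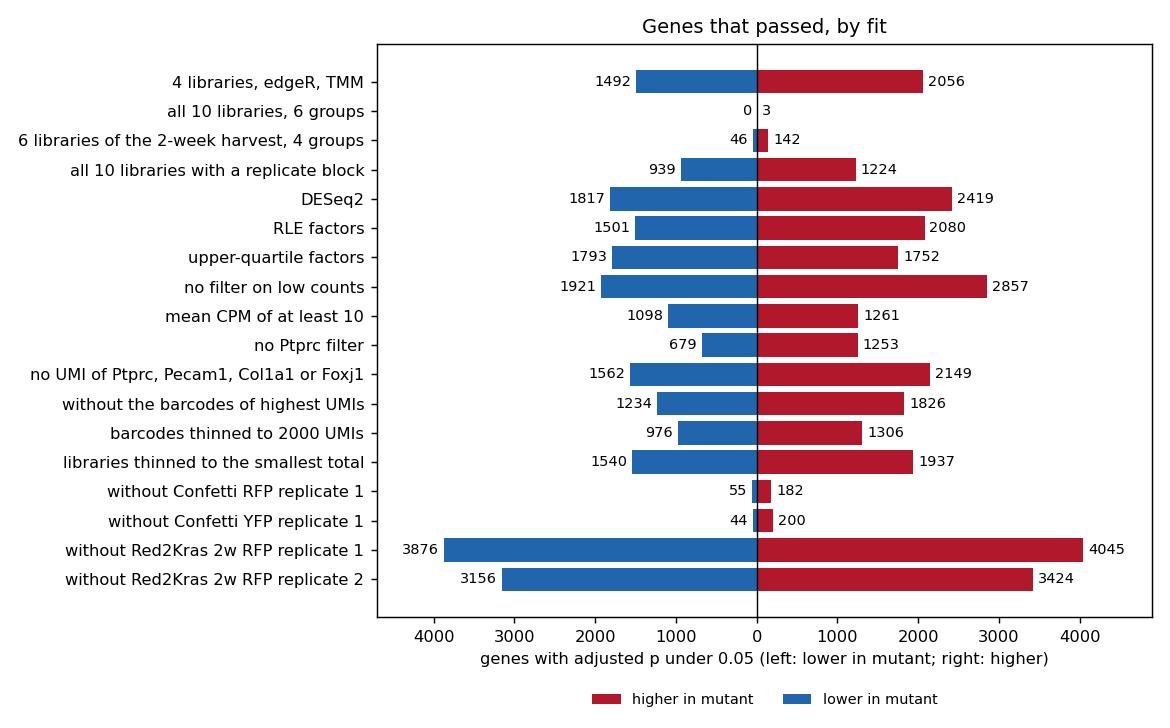
Number of genes with an adjusted p under 0.05 in each fit, with genes higher in mutant cells to the right of zero and lower genes to the left. The count of 3548 in the 4-library fit fell to 237 and 244 without 1 of the Confetti libraries, to 188 over 6 libraries and to 3 over 10 libraries, or 2163 over 10 with the replicate block.

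Levels are in CPM, the UMIs of a gene scaled to the TMM-adjusted total of its library, and each log2 fold change comes from the 4-library test with its standard error (SE). In pairs of values, Confetti RFP comes before Confetti YFP and mutant replicate 1 before replicate 2. A level summed over a library does not tell fewer cells of a type from less RNA per cell. Among small GTPases of the Ras family, Nras was at 23.4 and 22.6 CPM in Confetti and 48.9 and 44.9 CPM in mutant cells (log2 fold change 1.03, SE 0.16, adjusted p = 0.0158) and Rras2 at 7.96 and 7.99 CPM in Confetti and 13.2 and 14.3 CPM in mutant cells (log2 fold change 0.78, SE 0.19, adjusted p = 0.0364), and both mutant libraries lay above both Confetti libraries in each. Ksr1, a scaffold of the RAF and MEK kinases, also rose, at a low level. Hras was at 161 and 128 CPM in Confetti and 164 and 194 CPM in mutant cells and the MEK gene Map2k2 at 108 and 84.5 CPM in Confetti and 128 and 175 CPM in mutant cells, and neither passed.

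The labelled cell type was checked against marker genes. The 7 AT2 markers summed to 173500 and 141100 CPM in Confetti and 110100 and 96470 CPM in mutant cells, and every one of them was detected in every library. AT1 markers summed to 1433 and 1214 CPM against 1451 and 2955 CPM, with mutant replicate 2 the highest. Markers of other cells moved with the groups. Endothelial markers were at 53.9 and 76.2 CPM in Confetti and 12.1 and 4.43 CPM in mutant cells, ciliated cell markers at 93.5 and 111 against 24.1 and 34.7 CPM. Airway secretory markers were not low, at 6012 and 9757 against 341 and 2281 CPM. Macrophage markers were at 29.6 and 29.9 against 16.01 and 63.7 CPM, so that mutant replicate 2 was the highest. Mesenchymal markers were at 8.78 and 16.2 against 5.09 and 9.39 CPM and neutrophil markers at 0.439 and 30.03 against 0.702 and 14.3 CPM, with the groups overlapping. Ly6g, Cd3e and Nkg7 were at 0 in at least 1 library.

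Targets of ERK rose, and so did ligands of growth factor receptors. Of 22 tested ERK targets and feedback genes, 12 rose (54.55% against 14.6% of all genes) and 1 fell, with a median log2 fold change of 1.20 against -0.00189 over all genes. Of 13 tested genes of the EGFR family, 6 rose and none fell (46.2% and 0%, against 14.6% and 10.6% of all genes). These 6 were all ligands: Ereg, Areg, Hbegf, Btc, Epgn and Nrg1. Over 6 libraries, 3 genes of each list passed (Etv4, Fosl1 and Dusp5, and Ereg, Areg and Hbegf).

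Epiregulin (Ereg, ENSMUSG00000029377, chromosome 5, 91074622 to 91093646) went from 0.502 and 0.660 CPM in Confetti RFP and YFP to 106 and 71.9 CPM in mutant replicates 1 and 2 (log2 fold change 7.25, SE 0.35, adjusted p = 0.0015). Its chromosomal neighbour amphiregulin (Areg, chromosome 5, 91139599 to 91148432) went from 168 and 118 CPM in Confetti RFP and YFP to 1043 and 1320 CPM in mutant replicates 1 and 2 (log2 fold change 3.04, SE 0.28, adjusted p = 0.00498), so it was abundant already in wildtype cells. Hbegf, the heparin-binding ligand, stood at 43.95 and 38.7 CPM in Confetti and 232 and 241 CPM in mutant cells (log2 fold change 2.52, SE 0.19, adjusted p = 0.00337). In all 3 ligands the mutant libraries differed from each other by far less than from Confetti. Among ERK targets, the ETS factor Etv4 (chromosome 11, 101769742 to 101785371) was at 0.376 and 0.396 CPM in Confetti and 19.5 and 32.3 CPM in mutant cells (log2 fold change 6.05, SE 0.40, adjusted p = 0.00247), whereas its close relative Etv5 (chromosome 16, 22381309 to 22439719) fell, with 349.7 and 419 CPM in Confetti and 129 and 57.7 CPM in mutant cells (log2 fold change -2.04, SE 0.40, adjusted p = 0.0233). Dusp5, a nuclear phosphatase that removes the activating phosphates of ERK, rose from 3.95 and 5.81 CPM in Confetti RFP and YFP to 58.2 and 44.5 CPM in mutant replicates 1 and 2 (log2 fold change 3.40, SE 0.27, adjusted p = 0.00387). Fosl1, an AP-1 subunit, was at 1.76 and 2.44 CPM in Confetti and 23.8 and 18.1 CPM in mutant cells (log2 fold change 3.32, SE 0.28, adjusted p = 0.00413). Feedback genes did not move as 1 block: Spry2, an inhibitor of receptor signalling that is on in resting AT2 cells, was at 213 and 437 CPM in Confetti and 140.2 and 68.2 CPM in mutant cells and did not pass (adjusted p = 0.0532), and Errfi1, an inhibitor of EGFR itself, was at 255 and 252 CPM in Confetti and 375 and 245 CPM in mutant cells (adjusted p = 0.41).

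**Figure D2:**
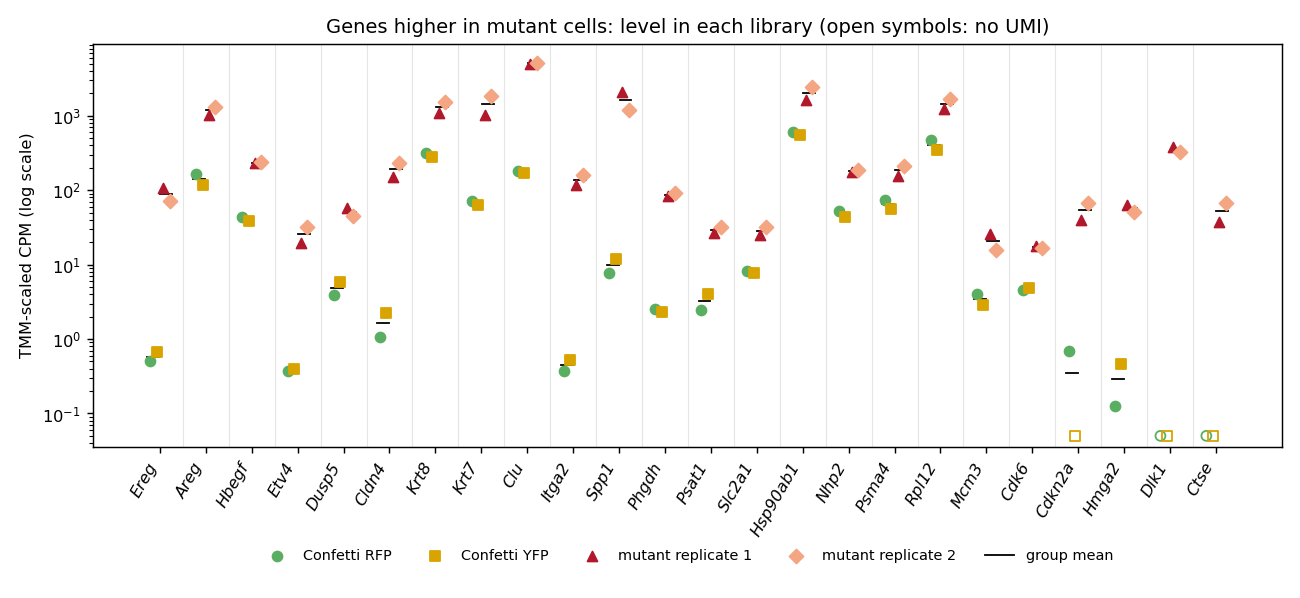
TMM-scaled CPM (log axis) of 24 genes in each of the 4 libraries, with a bar at each group mean and open symbols at the foot of the axis where no UMI was counted. All of these genes rose in the 4-library test, and mutant libraries lay above both Confetti libraries in each, with log2 fold changes such as 1.51 for Psma4, 2.13 for Krt8 and 8.24 for Itga2.

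The transitional state gave the highest share of risen genes among lists of at least 15 tested genes. Of its 20 tested genes, 19 rose and none fell (95% and 0%, against 14.6% and 10.6% of all genes). Their median log2 fold change was 3.14, and 11 passed over 6 libraries, where 1.27% of all genes did. The tight-junction protein Cldn4 went from 1.07 and 2.24 CPM in Confetti RFP and YFP to 151 and 235 CPM in mutant replicates 1 and 2 (log2 fold change 6.87, SE 0.45, adjusted p = 0.00234). Clusterin (Clu), a secreted chaperone, went from 183 and 169 CPM in Confetti RFP and YFP to 5055 and 5196 CPM in mutant replicates 1 and 2 (log2 fold change 4.86, SE 0.25, adjusted p = 0.00169). Ecm1, a matrix protein, was at 3.95 and 4.69 CPM in Confetti and 101 and 81.4 CPM in mutant cells, and Tnip3, an inhibitor of inflammatory signalling, at 3.699 and 5.21 CPM in Confetti and 68.6 and 59.1 CPM in mutant cells. Neither gene overlapped between groups, and both passed over 6 libraries (adjusted p = 0.0316 and 0.0264). The urokinase receptor Plaur was at 4.83 and 8.45 CPM in Confetti and 149 and 191 CPM in mutant cells (log2 fold change 4.68, SE 0.34, adjusted p = 0.00323). Leukocytes express it too: 47.8% of Ptprc-positive barcodes thinned to 2000 UMIs held a UMI of it, against 13.9% and 17.9% of mutant ones. With barcodes positive for Pecam1, Col1a1 or Foxj1 removed as well, its log2 fold change was 5.74. Ptprc-positive barcodes are already absent from the main test, so this setting removes no further leukocytes by a marker of theirs. The part of leukocytes without a Ptprc UMI was not tested. The 1 member that did not rise was Nupr1, a stress-induced chromatin protein, with 1197 and 1075 CPM in Confetti and 722 and 664 CPM in mutant cells (log2 fold change -0.71, SE 0.20, adjusted p = 0.0508).

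Of 15 keratins listed, the intermediate filaments of epithelia, 10 passed the count filter, Krt17 only through the mutant libraries. Of these 10, 8 rose and none fell (80% and 0%, against 14.6% and 10.6% of all genes), and 2 passed over 6 libraries. The pair Krt8 and Krt18 was well expressed in Confetti and rose by similar amounts, Krt8 from 315 and 284 CPM in Confetti RFP and YFP to 1091 and 1540 CPM in mutant replicates 1 and 2 (log2 fold change 2.13, SE 0.25, adjusted p = 0.00863) and Krt18 from 358 and 321 CPM in Confetti RFP and YFP to 1695 and 2916 CPM in mutant replicates 1 and 2 (log2 fold change 2.76, SE 0.33, adjusted p = 0.00852). Krt7 rose more, from 70.8 and 63.6 CPM in Confetti RFP and YFP to 1024 and 1859 CPM in mutant replicates 1 and 2 (log2 fold change 4.42, SE 0.37, adjusted p = 0.00413). Krt17, a basal cell keratin, passed at a level close to the counting limit, with 0.424 and 0.456 CPM in mutant cells and no count in Confetti (at least 4.51-fold higher against a floor of 3 counts over both Confetti libraries). Krt15, another basal keratin, was at 1.19 and 1.19 CPM in Confetti and 1.301 and 0.483 CPM in mutant cells and did not pass.

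The share of barcodes with at least 1 UMI gave the same order once each barcode was thinned to 2000 UMIs, which removes the difference in depth. Cldn4 was seen in 0.128% and 0.292% of Confetti barcodes and 14.96% and 24.7% of mutant barcodes, against 0.763% of the Ptprc-positive barcodes of the series, which should lack it and had a median of 7724.5 UMIs before thinning. Krt8 was seen in 34.1% and 34.7% against 65.2% and 71.5% (5.29% of Ptprc-positive barcodes). For Clu the shares were 25.01% and 24.2% against 65.5% and 68.1% (5.91%), and for Areg 14.8% and 12.4% against 47.5% and 45.9% (5.48%).

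Attachment, matrix and protease genes rose in part. Of 21 tested integrin and laminin genes, 9 rose and 1 fell (42.9% and 4.76%, against 14.6% and 10.6% of all genes), and 3 passed over 6 libraries. The collagen-binding integrin Itga2 (chromosome 13, 114833081 to 114932100) went from 0.376 and 0.528 CPM in Confetti RFP and YFP to 116 and 159 CPM in mutant replicates 1 and 2 (log2 fold change 8.24, SE 0.34, adjusted p = 0.0015). The laminin-binding pair rose as well, Itgb4 at 0.815 and 0.726 CPM in Confetti and 16.8 and 13.8 CPM in mutant cells and Itga6 at 20.8 and 21.1 CPM in Confetti and 119 and 116 CPM in mutant cells, and both passed over 6 libraries. The abundant partner Itgb1 was at 244 and 230 CPM in Confetti and 259 and 259 CPM in mutant cells (log2 fold change 0.13, SE 0.18, adjusted p = 0.603), whereas Itga1, a second collagen-binding subunit, fell with 17.4 and 16.9 CPM in Confetti and 7.97 and 3.65 CPM in mutant cells (log2 fold change -1.55, SE 0.38, adjusted p = 0.0368). Cd44 was at 92.2 and 99 CPM in Confetti and 174 and 73.3 CPM in mutant cells and differed more between the mutant libraries than between the groups.

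Of 26 matrix genes and matrix proteases tested, 13 rose and 1 fell (50% and 3.85%, against 14.6% and 10.6% of all genes). Osteopontin (Spp1), a secreted phosphoprotein, went from 7.78 and 11.8 CPM in Confetti RFP and YFP to 2126 and 1187 CPM in mutant replicates 1 and 2 (log2 fold change 7.40, SE 0.47, adjusted p = 0.00224). Macrophages make Spp1 too: 37.5% of Ptprc-positive barcodes thinned to 2000 UMIs held a UMI of it, and the summed macrophage markers were 29.6 and 29.9 CPM in Confetti and 16.01 and 63.7 CPM in mutant cells. With barcodes that hold any UMI of Pecam1, Col1a1 or Foxj1 removed as well, its log2 fold change was 9.87. None of these 3 genes marks macrophages, so the part of Ptprc-negative macrophages in Spp1 was not tested. Fibronectin (Fn1) was at 1.25 and 1.91 CPM in Confetti and 41.5 and 22.01 CPM in mutant cells (log2 fold change 4.33, SE 0.42, adjusted p = 0.00572). It was seen in 30.4% of Ptprc-positive barcodes against 4.06% and 3.396% of mutant ones. Its log2 fold change was 5.28 with the same barcodes removed, which again takes out no further leukocytes by a marker of theirs. Ctgf, a matricellular growth factor, was at 3.32 and 3.300 CPM in Confetti and 19.4 and 17.4 CPM in mutant cells (log2 fold change 2.47, SE 0.21, adjusted p = 0.00413). Mmp15, a membrane-bound metalloproteinase, fell with 117 and 115 CPM in Confetti and 54.9 and 35 CPM in mutant cells (log2 fold change -1.36, SE 0.25, adjusted p = 0.0212). The basement membrane collagen Col4a1 was at 96.5 and 107 CPM in Confetti and 128 and 189 CPM in mutant cells and did not pass (adjusted p = 0.0984). Of 21 coagulation and plasminogen genes listed, 17 passed the count filter, Serpinb2 only through the mutant libraries. Of these 17, 9 were higher and 1 lower (52.9% and 5.88%, against 14.6% and 10.6% of all genes). Tissue factor (F3), which starts clotting, was at 15.5 and 14.6 CPM in Confetti and 221 and 568 CPM in mutant cells (log2 fold change 4.71, SE 0.51, adjusted p = 0.00694), and the thrombin receptor F2r at 9.47 and 9.24 CPM in Confetti and 65.7 and 49.2 CPM in mutant cells (log2 fold change 2.62, SE 0.22, adjusted p = 0.00413). Serpinb2, an inhibitor of plasminogen activators, had 1 UMI in all of Confetti and 17.2 and 18.8 CPM in mutant cells, a ratio of 553 with a counting interval from 99.1 to 21840. Procr, a receptor of protein C that was named after its values were seen, had the largest difference between the mutant libraries among these, with 0.502 and 0.726 CPM in Confetti and 57.6 and 326 CPM in mutant cells (log2 fold change 8.28, SE 1.09, adjusted p = 0.0105). Thrombomodulin (Thbd), an anticoagulant that endothelium also makes, fell with 6.14 and 10.6 CPM in Confetti and 2.82 and 1.64 CPM in mutant cells. Endothelium expresses both Itga1 and Thbd, its 5 markers were all lower in mutant cells (53.9 and 76.2 against 12.1 and 4.43 CPM), and with barcodes that hold a UMI of Ptprc, Pecam1, Col1a1 or Foxj1 left out the log2 fold change was -0.34 for Itga1 and 0.003 for Thbd, neither of which passed.

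Genes of the actin cytoskeleton and adhesion sites rose in part, but not the most abundant ones. Of 34 tested, 16 rose and 1 fell (47.1% and 2.94%, against 14.6% and 10.6% of all genes). Annexin A1 (Anxa1), which binds membranes and actin, was at 99.8 and 78.7 CPM in Confetti and 827 and 1200 CPM in mutant cells, its relative Anxa2 at 459.5 and 361 CPM in Confetti and 1186 and 1220 CPM in mutant cells and the tropomyosin Tpm3 at 147 and 143 CPM in Confetti and 338 and 394 CPM in mutant cells. Actb was at 4143 and 8367 CPM in Confetti and 5673 and 4465 CPM in mutant cells (adjusted p = 0.574), and the actin-binding peptide gene Tmsb4x at 16140 and 13870 CPM in Confetti and 20650 and 18550 CPM in mutant cells (adjusted p = 0.293). Of 25 junction genes, 5 rose and none fell (20% against 14.6% of all genes higher). Besides Cldn4 the risers included Cldn2 (0.251 and 0.594 CPM in Confetti and 23.6 and 22.7 CPM in mutant cells) and the embryonic claudin Cldn6 (0.125 and 0.132 CPM in Confetti and 7.21 and 15.7 CPM in mutant cells), whereas the alveolar claudin Cldn18 was at 589.8 and 564 CPM in Confetti and 508 and 1101 CPM in mutant cells and did not pass. Of 5 tested mesenchymal-transition genes, 2 fell and 1 (Fn1) rose (40% against 10.6% and 20% against 14.6% of all genes). The repressor Snai1 was at 3.89 and 3.17 CPM in Confetti and 1.199 and 0.698 CPM in mutant cells and Zeb1 at 2.696 and 4.62 CPM in Confetti and 0.979 and 0.268 CPM in mutant cells, and neither passed without the Ptprc filter. Vim did not pass, with 26.1 and 23.4 CPM in Confetti and 30.4 and 29.8 CPM in mutant cells. The summed mesenchymal markers given above overlapped between the groups. Of the 5 markers, 4 were lower in both mutant libraries than in both Confetti libraries, as were 37% of all genes. Of the 5, 1 passed, and their median log2 fold change was -1.26. The part of mesenchymal cells in these falls was not tested.

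Genes of serine synthesis and of the amino acid stress response rose. This list holds targets of the transcription factor ATF4. Of its 24 tested members, 16 rose and 1 fell (66.7% and 4.17%, against 14.6% and 10.6% of all genes). The median log2 fold change was 1.44, and Psat1 and Mthfd2 passed over 6 libraries. Phgdh (ENSMUSG00000053398, chromosome 3, 98313170 to 98339990), which commits a glycolytic intermediate to serine, went from 2.51 and 2.31 CPM in Confetti RFP and YFP to 84.3 and 90.5 CPM in mutant replicates 1 and 2 (log2 fold change 5.18, SE 0.20, adjusted p = 0.0015). The mutant libraries were close to each other and both far above Confetti. The next enzyme, Psat1, was at 2.44 and 4.03 CPM in Confetti and 26.3 and 31.9 CPM in mutant cells (log2 fold change 3.17, SE 0.29, adjusted p = 0.00498), and the mitochondrial one-carbon enzyme Mthfd2 at 4.45 and 5.68 CPM in Confetti and 22.1 and 27.1 CPM in mutant cells (log2 fold change 2.28, SE 0.23, adjusted p = 0.00623). Atf4 itself did not pass, with 139.8 and 138 CPM in Confetti and 170.4 and 119 CPM in mutant cells (log2 fold change 0.06, SE 0.23, adjusted p = 0.857). Vldlr, a lipoprotein receptor, was the member that fell, with 43.1 and 38.6 CPM in Confetti and 18.04 and 13.7 CPM in mutant cells (log2 fold change -1.36, SE 0.20, adjusted p = 0.0138). Phgdh is also on in leukocytes: thinned to 2000 UMIs, 20.02% of Ptprc-positive barcodes of the series held a UMI of it, against 0.461% and 0.390% of Confetti and 8.31% and 8.84% of mutant barcodes, so these barcodes give no background for it, and without the Ptprc filter its log2 fold change was 4.70.

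The letters TGATGNAA, read on both strands, are the core of the element that ATF4 binds together with a C/EBP partner. In the 250 bases upstream of the first start that RefSeq (GRCm38.p6) lists for each gene, they were present in 5 of 23 members with a promoter sequence (21.7%), in 216 of 10656 tested genes (2.03%) and in 954 of 27025 genes of the table (3.53%). They were also present in 3 of 14 transitional genes with a sequence (21.4%), 1 of them Nupr1, which is in both lists. Among the transitional genes that rose, which leaves out Nupr1, 2 of 13 held them (15.4%), so the match is not particular to the ATF4 list. Among the ATF4 list members that rose, those with the match were Asns, Chac1, Pycr1 and Slc7a11, of 16 with a sequence. These 4 promoters are shown so that the position and flanks of the match can be read. They were picked for the match after their values were known, and a match of letters is not evidence of binding. The capitals mark the match, on either strand, and each sequence ends at the base before the start site.
Asns (chr6:7693210-7693459, - strand): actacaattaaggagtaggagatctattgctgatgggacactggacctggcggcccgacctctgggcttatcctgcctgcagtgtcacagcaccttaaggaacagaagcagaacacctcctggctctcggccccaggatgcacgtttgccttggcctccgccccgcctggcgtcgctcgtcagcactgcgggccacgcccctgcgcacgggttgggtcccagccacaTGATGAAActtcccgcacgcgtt
Chac1 (chr2:119350992-119351241, + strand): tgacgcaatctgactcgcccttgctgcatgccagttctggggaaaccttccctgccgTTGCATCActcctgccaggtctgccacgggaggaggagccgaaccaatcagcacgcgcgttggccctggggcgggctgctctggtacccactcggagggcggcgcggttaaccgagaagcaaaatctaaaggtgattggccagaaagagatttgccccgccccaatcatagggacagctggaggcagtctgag
Pycr1 (chr11:120643749-120643998, - strand): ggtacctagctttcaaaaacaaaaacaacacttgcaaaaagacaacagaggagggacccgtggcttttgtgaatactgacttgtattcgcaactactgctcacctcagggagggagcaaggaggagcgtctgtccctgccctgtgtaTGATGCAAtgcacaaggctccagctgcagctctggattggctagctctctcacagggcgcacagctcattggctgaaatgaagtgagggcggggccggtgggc
Slc7a11 (chr3:50443614-50443863, - strand): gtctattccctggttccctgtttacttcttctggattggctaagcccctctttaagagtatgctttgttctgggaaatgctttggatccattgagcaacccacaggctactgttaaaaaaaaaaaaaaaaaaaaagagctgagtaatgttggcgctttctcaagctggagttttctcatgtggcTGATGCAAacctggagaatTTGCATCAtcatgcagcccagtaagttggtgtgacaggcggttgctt
The match began 23 bases before the start in Asns, 193 in Chac1 and 103 in Pycr1, and Slc7a11 held 2, at 66 and 47 bases. Asparagine synthetase (Asns) was at 8.03 and 5.48 CPM in Confetti and 26.7 and 43.9 CPM in mutant cells (log2 fold change 2.38, SE 0.33, adjusted p = 0.0115). Chac1, which degrades glutathione, was at 1.07 and 0.792 CPM in Confetti and 2.38 and 4.46 CPM in mutant cells (log2 fold change 1.87, SE 0.48, adjusted p = 0.0399), and Pycr1, which makes proline, at 0.439 and 0.462 CPM in Confetti and 1.96 and 2.25 CPM in mutant cells (log2 fold change 2.21, SE 0.44, adjusted p = 0.0233). The cystine importer Slc7a11 was at 0.251 and 0.726 CPM in Confetti and 10.9 and 6.47 CPM in mutant cells (log2 fold change 4.16, SE 0.55, adjusted p = 0.0106). Chac1 and Pycr1 stayed at a few CPM at most, from 29 and 14 UMIs in both Confetti libraries together.

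A second motif was searched because the AP-1 subunit Fosl1 rose. The letters TGANTCA, which read the same on both strands and name the AP-1 element, were present in 3 of 14 transitional genes with a sequence (21.4%), in 485 of 10656 tested genes (4.55%) and in 1856 of the 27025 genes (6.87%). Among the ATF4 targets 2 of 23 held them (8.70%). A single stretch can in principle hold both motifs. The promoters of Plaur and Cldn4, 2 of the 3 transitional genes with the motif, are shown with the matches in capitals.
Plaur (chr7:24462233-24462482, + strand): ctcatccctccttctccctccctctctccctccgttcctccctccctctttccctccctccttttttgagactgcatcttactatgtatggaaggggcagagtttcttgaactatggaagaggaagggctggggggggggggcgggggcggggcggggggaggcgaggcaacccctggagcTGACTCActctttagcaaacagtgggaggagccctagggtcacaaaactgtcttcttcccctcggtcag
Cldn4 (chr5:134946935-134947184, - strand): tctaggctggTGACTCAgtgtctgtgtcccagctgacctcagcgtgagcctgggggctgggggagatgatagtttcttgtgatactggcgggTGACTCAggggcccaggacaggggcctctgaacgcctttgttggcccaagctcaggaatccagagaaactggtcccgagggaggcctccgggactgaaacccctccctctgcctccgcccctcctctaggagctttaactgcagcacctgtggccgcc
In Plaur the match began 69 bases before the start, and Cldn4 held 2, at 240 and 158 bases. The immediate-early factors, which include the AP-1 genes, had 10 of 22 members higher and none lower (45.45% and 0%, against 14.6% and 10.6% of all genes). The mutant libraries, however, were unlike each other in this list. The median log2 ratio of replicate 1 over replicate 2 was 1.01, and 11 members were more than 2-fold higher in replicate 1 while none was in replicate 2. Atf3, a stress factor, was at 266 and 265 CPM in Confetti and 891 and 385 CPM in mutant cells and did not pass (adjusted p = 0.0677), whereas Btg2, an antiproliferative gene, was at 102 and 92.1 CPM in Confetti and 260.2 and 262 CPM in mutant cells (log2 fold change 1.42, SE 0.18, adjusted p = 0.00969) and Maff, a small Maf factor, at 20.4 and 17.6 CPM in Confetti and 41.7 and 46.3 CPM in mutant cells.

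Many genes of the proteasome and of ribosome biogenesis rose, by small amounts. Of 31 proteasome genes tested, 24 rose and none fell (77.4% and 0%, against 14.6% and 10.6% of all genes). Their median log2 fold change was 0.930, with a range from -0.229 to 1.63. Psma4, of the core particle, was at 74.2 and 56.04 CPM in Confetti and 157 and 214 CPM in mutant cells (log2 fold change 1.51, SE 0.25, adjusted p = 0.0162). Psmd14, of the lid, was at 35.5 and 32.1 CPM in Confetti and 77.7 and 91.1 CPM in mutant cells (log2 fold change 1.32, SE 0.18, adjusted p = 0.0114). Ribosome biogenesis and MYC target genes gave 20 of 32 higher and none lower (62.5% and 0%, against 14.6% and 10.6% of all genes, median 1.01). Nhp2, which serves pseudouridylation of ribosomal RNA, was at 53.1 and 44.3 CPM in Confetti and 176 and 186 CPM in mutant cells (log2 fold change 1.89, SE 0.19, adjusted p = 0.00612), and spermidine synthase (Srm) at 15.5 and 12.9 CPM in Confetti and 52.6 and 47.1 CPM in mutant cells (log2 fold change 1.81, SE 0.19, adjusted p = 0.00658), the 1 member that passed over 6 libraries. Nme1 was at 111 and 87.7 CPM in Confetti and 357 and 379 CPM in mutant cells, although it has a close paralog in the next gene. The nucleolar protein Ncl was at 213 and 228 CPM in Confetti and 319 and 322 CPM in mutant cells and did not pass (adjusted p = 0.0736).

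Cytosolic ribosomal proteins gave 31 of 81 higher (38.3% against 14.6% of all genes) and 1 lower, with a median of 0.827, and 68 of the 81 had a positive fold change. The members did not move in step. Among the risers Rpl17 was at 634 and 430.3 CPM in Confetti and 1605 and 2408 CPM in mutant cells, Rpl12 at 469 and 343 CPM in Confetti and 1227 and 1662 CPM in mutant cells and Rps2 at 1545 and 1228 CPM in Confetti and 3744 and 3578 CPM in mutant cells. Rps27 fell, with 3246 and 3840 CPM in Confetti and 1939 and 1869 CPM in mutant cells (log2 fold change -0.90, SE 0.22, adjusted p = 0.0382), and Rpl41 was at 4692 and 6180 CPM in Confetti and 5513 and 3934 CPM in mutant cells. Ribosomal protein genes have many processed copies, so their counts may be shared with these. No proteasome gene and no ribosomal protein gene passed over 6 libraries.

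Heat-shock chaperones rose in 8 of 19 cases (42.1% against 14.6% of all genes), with a median log2 fold change of 1.35 (0.473 without mutant replicate 1). None of them fell, against 10.6% of all genes. The constitutive chaperones Hsp90ab1, of the cytosol, and Hspd1, of mitochondria, rose in both mutant libraries, Hsp90ab1 from 603 and 548 CPM in Confetti RFP and YFP to 1638 and 2435 CPM in mutant replicates 1 and 2 (log2 fold change 1.82, SE 0.27, adjusted p = 0.0135) and Hspd1 to 275 and 243 CPM from 70.6 and 59.9. The stress-inducible Hspa1a was at 174 and 168 CPM in Confetti and 1319 and 832 CPM in mutant cells (log2 fold change 2.65, SE 0.29, adjusted p = 0.00694), and its counts may be shared with the near-identical Hspa1b. Hspb1 and Dnajb1 set the mutant libraries apart: Hspb1 was at 871 and 124 CPM in replicates 1 and 2 against 409 and 403 in Confetti, and Dnajb1 at 495 and 113 against 57.1 and 63.6, and neither passed. Without replicate 1 the log2 fold change of Hspb1 was -1.69, and without replicate 2 it was 1.10. Of 23 chaperones of the endoplasmic reticulum, 8 rose (34.8% against 14.6% of all genes) and none fell, with a median of 0.359 (0.214 without mutant replicate 1). Sdf2l1 was at 37.6 and 29.2 CPM in Confetti and 107 and 97.5 CPM in mutant cells and the disulfide isomerase Pdia3 at 219 and 203 CPM in Confetti and 412 and 502 CPM in mutant cells, whereas P4hb was at 172 and 182 CPM in Confetti and 267 and 270.4 CPM in mutant cells (adjusted p = 0.055).

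In energy metabolism, 12 of 25 glycolysis and hypoxia genes rose and 2 fell (48% against 14.6% and 8% against 10.6% of all genes, median 1.03, or 0.672 without mutant replicate 2). The risers included the glucose transporter Slc2a1, 8.21 and 7.72 CPM in Confetti and 24.7 and 31.8 CPM in mutant cells (log2 fold change 1.82, SE 0.21, adjusted p = 0.00771), the enzyme Pgk1, 51.9 and 41.3 CPM in Confetti and 159.6 and 205 CPM in mutant cells (log2 fold change 1.97, SE 0.23, adjusted p = 0.00787), and the lipid droplet protein Hilpda, 21.9 and 17.9 CPM in Confetti and 84.6 and 90.3 CPM in mutant cells (log2 fold change 2.13, SE 0.19, adjusted p = 0.00459). The 2 that fell were Pdk1, a brake on pyruvate use (11.04 and 11.7 CPM in Confetti and 5.86 and 6.79 CPM in mutant cells), and Bnip3, a mitophagy receptor (67.9 and 60.99 CPM in Confetti and 36.8 and 31.5 CPM in mutant cells), both of them hypoxia-inducible. Of 51 nuclear-encoded genes of the respiratory chain, 8 rose (15.7% against 14.6% of all genes) and 1 fell (1.96% against 10.6%), with a median of 0.305. Atp5b, of the ATP synthase, was at 254 and 211 CPM in Confetti and 418 and 515 CPM in mutant cells and Uqcrc2, of complex III, at 56.7 and 41.05 CPM in Confetti and 87.2 and 137 CPM in mutant cells. Cox8a was at 1722 and 1553 CPM in Confetti and 1636 and 1147 CPM in mutant cells and Cox6c at 1291 and 1266 CPM in Confetti and 1038 and 759.6 CPM in mutant cells, and neither of these subunits of complex IV passed. Of 21 genes of the TCA cycle, 5 rose and 1 fell (23.8% and 4.76% against 14.6% and 10.6% of all genes, median 0.442). Dlat, of the pyruvate dehydrogenase complex, was at 13.3 and 12.4 CPM in Confetti and 23.1 and 31.8 CPM in mutant cells, and Ogdh, the gene that fell, at 74.2 and 77.9 CPM in Confetti and 46.05 and 39.5 CPM in mutant cells. None of the genes in these 3 lists passed over 6 libraries.

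Lipid synthesis is a main task of AT2 cells, and its genes fell more often than they rose. Of 28 genes of fatty acid and phospholipid synthesis, 9 fell and 3 rose (32.1% against 10.6% and 10.7% against 14.6% of all genes, median -0.332, or -0.189 without Confetti RFP). The enzymes of successive steps from citrate to fatty acids fell: Acly was at 258 and 302 CPM in Confetti and 129 and 78.99 CPM in mutant cells (log2 fold change -1.43, SE 0.28, adjusted p = 0.0235), Acaca at 104 and 104 CPM in Confetti and 44 and 32.8 CPM in mutant cells (log2 fold change -1.44, SE 0.21, adjusted p = 0.0126) and Fasn at 636 and 647 CPM in Confetti and 322 and 325 CPM in mutant cells (log2 fold change -0.99, SE 0.18, adjusted p = 0.0214). In all 3 both mutant libraries were below both Confetti libraries. Scd1, the desaturase with the highest level, was at 3339 and 3177 CPM in Confetti and 2885 and 2283 CPM in mutant cells (log2 fold change -0.33, SE 0.23, adjusted p = 0.314). The risers were Acsl3, which activates fatty acids (16.6 and 16.8 CPM in Confetti and 27.98 and 51.3 CPM in mutant cells), the lipid droplet coat Plin2 (141 and 122 CPM in Confetti and 229.5 and 222 CPM in mutant cells) and, at a low level, the elongase Elovl6 (0.125 and 0.264 CPM in Confetti and 0.950 and 1.503 CPM in mutant cells). Of 24 sterol genes, 5 fell and 1 rose (20.8% against 10.6% and 4.17% against 14.6% of all genes, median -0.324). Srebf2, the master factor of sterol synthesis, was at 82.1 and 103 CPM in Confetti and 41.9 and 29.3 CPM in mutant cells (log2 fold change -1.38, SE 0.24, adjusted p = 0.0192), and its retention factor Insig1 at 185 and 366 CPM in Confetti and 94.6 and 50.3 CPM in mutant cells (log2 fold change -1.93, SE 0.44, adjusted p = 0.0317). Ebp rose, with 41.6 and 31.6 CPM in Confetti and 66.7 and 123 CPM in mutant cells. Of 25 genes of fatty acid oxidation, 1 rose and 1 fell (4% each, below the shares of all genes). The dehydrogenase Acadl, which rose, was at 104 and 84.3 CPM in Confetti and 183 and 224 CPM in mutant cells.

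**Figure D3:**
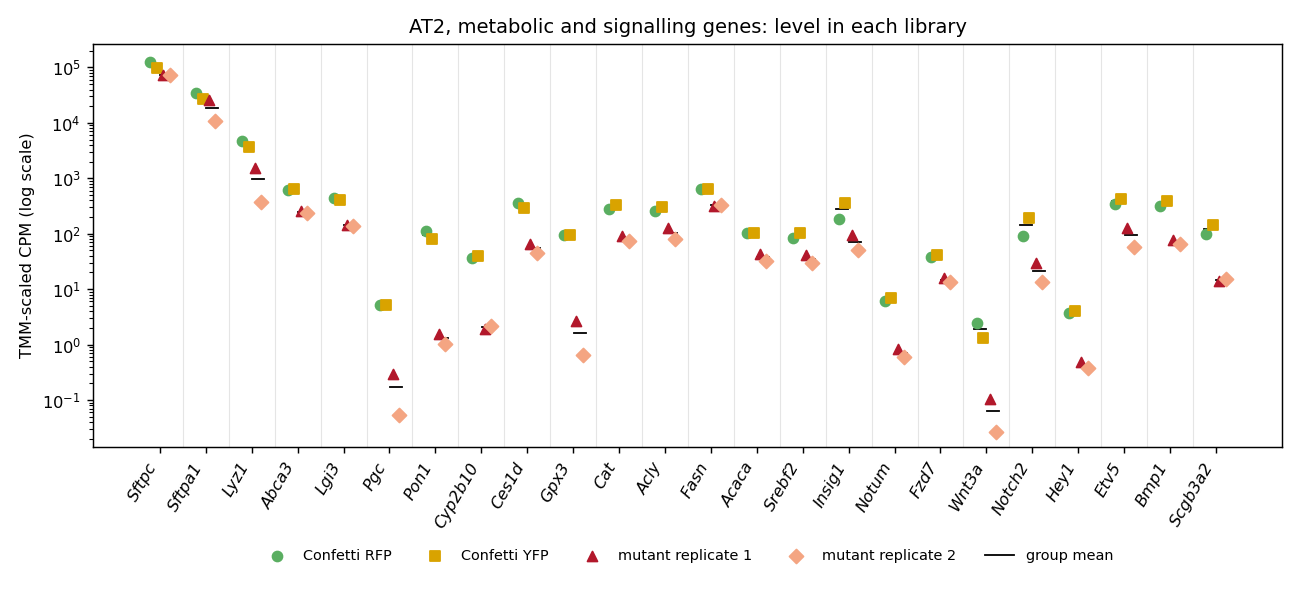
TMM-scaled CPM (log axis) of 24 AT2, metabolic and signalling genes in each of the 4 libraries, with a bar at each group mean. Sftpc, Sftpa1 and Lyz1 did not pass the test although their Confetti libraries were higher, whereas the other 21 genes fell, by 0.99 on the log2 scale for Fasn and by 6.20 for Pon1.

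Surfactant and lamellar body genes were lower in part, and the surfactant protein genes Sftpa1, Sftpb, Sftpc and Sftpd did not pass. Of 20 tested, 8 fell and none rose (40% and 0%, against 10.6% and 14.6% of all genes, median -0.678). In 16 both mutant libraries were below both Confetti libraries, where 37% of all genes were. The lipid pump of the lamellar body, Abca3 (chromosome 17, 24351950 to 24410201), was at 607 and 628 CPM in Confetti and 256 and 237 CPM in mutant cells (log2 fold change -1.32, SE 0.19, adjusted p = 0.0123). Lgi3, a secreted protein of AT2 cells, was at 442 and 407 CPM in Confetti and 144 and 139.7 CPM in mutant cells (log2 fold change -1.58, SE 0.18, adjusted p = 0.00803), and pepsinogen C (Pgc) at 5.14 and 5.15 CPM in Confetti and 0.292 and 0.0537 CPM in mutant cells (log2 fold change -4.74, SE 0.68, adjusted p = 0.0126). Sftpc (chromosome 14, 70520949 to 70524081) was at 123100 and 99770 CPM in Confetti and 73180 and 73770 CPM in mutant cells (log2 fold change -0.60, SE 0.30, adjusted p = 0.177), and it was seen in 99.6% and 99.6% of thinned Confetti barcodes and 94.5% and 82.9% of mutant barcodes. It was also seen in 42.4% of Ptprc-positive barcodes, which should lack it. Sftpa1 was at 34700 and 26980 CPM in Confetti and 25750 and 10780 CPM in mutant cells and Cxcl15, a lung chemokine, at 12760 and 11290 CPM in Confetti and 13300 and 7959 CPM in mutant cells, and mutant replicate 2 was the lower one in both. Ctsh, a protease that processes surfactant protein, was at 1292 and 913 CPM in Confetti and 1697 and 3080 CPM in mutant cells (log2 fold change 1.11, SE 0.36, adjusted p = 0.0697). The lysozyme gene Lyz2, named after its values were seen, was at 52410 and 37470 CPM in Confetti and 18420 and 7818 CPM in mutant cells (log2 fold change -1.78, SE 0.48, adjusted p = 0.0452), with more than a 2-fold difference between the mutant libraries. None of the 20 passed over 6 libraries (adjusted p = 0.0621 for Abca3).

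Of 20 AT1 differentiation genes, 3 rose and 2 fell, shares of 15% and 10% against the 14.6% and 10.6% of all genes. Their median log2 fold change was 0.298, but 0.659 without mutant replicate 1 and -0.126 without replicate 2. The risers were Pdpn, Akap5 and Aqp5. Podoplanin (Pdpn) was at 2.13 and 2.904 CPM in Confetti and 46.8 and 89.3 CPM in mutant cells (log2 fold change 4.75, SE 0.41, adjusted p = 0.00423, adjusted p over 6 libraries 0.043). The scaffold Akap5 was at 3.57 and 4.22 CPM in Confetti and 12.3 and 74.3 CPM in mutant cells and the water channel Aqp5 at 454 and 382 CPM in Confetti and 699 and 1355 CPM in mutant cells. The defining AT1 gene Ager was at 875 and 709 CPM in Confetti and 638 and 1177 CPM in mutant cells (log2 fold change 0.20, SE 0.33, adjusted p = 0.678). Cav1, which endothelium also makes, fell with 28.5 and 37.6 CPM in Confetti and 15.3 and 9.53 CPM in mutant cells, but its log2 fold change was 0.27, and did not pass, with endothelial, leukocyte, fibroblast and ciliated cell barcodes left out as above. So did Col4a4, a basement membrane collagen, with 29.6 and 33.99 CPM in Confetti and 13.8 and 17.96 CPM in mutant cells, which passed in that setting too (log2 fold change -1.09). Primed AT2 and acute phase genes gave 5 of 16 higher (31.25% against 14.6% of all genes) and none lower. With the replicate block over 10 libraries, none of these 5 passed. Lcn2, a secreted iron-carrier binding protein, was at 2242 and 1881 CPM in Confetti and 5812 and 3883 CPM in mutant cells, Lrg1 at 675 and 601 CPM in Confetti and 1522 and 1492 CPM in mutant cells and Orm1 at 5.27 and 5.21 CPM in Confetti and 54.6 and 66.3 CPM in mutant cells (log2 fold change 3.53, SE 0.20, adjusted p = 0.00181), although Orm1 has close paralogs. Haptoglobin (Hp) was at 979 and 777 CPM in Confetti and 620.3 and 520.5 CPM in mutant cells and did not pass.

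Detoxification enzymes fell more often than any other list of at least 15 genes: 18 of 31 fell (58.1% against 10.6% of all genes) and 1 rose, with a median log2 fold change of -1.27. Paraoxonase 1 (Pon1, chromosome 6, 5168090 to 5193946), which hydrolyses lipid peroxides and organophosphates, went from 112 and 81.5 CPM in Confetti RFP and YFP to 1.53 and 1.05 CPM in mutant replicates 1 and 2 (log2 fold change -6.20, SE 0.32, adjusted p = 0.00169). The cytochrome P450 Cyp2b10 (chromosome 7, 25897620 to 25926624) was at 36.9 and 39.7 CPM in Confetti and 1.94 and 2.15 CPM in mutant cells (log2 fold change -4.23, SE 0.20, adjusted p = 0.0015), with possible sharing of counts between its paralogs. These 2 genes also passed over 6 libraries (adjusted p = 0.0264 and 0.0264). The carboxylesterase Ces1d was at 356 and 296 CPM in Confetti and 66.5 and 44.5 CPM in mutant cells (log2 fold change -2.56, SE 0.27, adjusted p = 0.0068). Gsta4, which conjugates lipid aldehydes to glutathione, was the 1 riser, with 170 and 144 CPM in Confetti and 251 and 278 CPM in mutant cells, and the abundant Mgst1 was at 626 and 508 CPM in Confetti and 486 and 646 CPM in mutant cells. Airway club cells are rich in several of these enzymes. The sum of their 4 markers was lower in mutant cells (6012 and 9757 against 341 and 2281 CPM). Of these 4, 3 were lower in both mutant libraries than in both Confetti libraries, as were 37% of all genes, and 1 passed. The remaining 1 had a positive log2 fold change (2.07). Scgb1a1, which did not pass, was at 5811 and 9569 CPM in Confetti and 320.2 and 2254 CPM in mutant cells. Scgb3a2 was at 101 and 143 CPM in Confetti and 14.03 and 15.5 CPM in mutant cells. Cyp2f2, the P450 of club cells, was lower too, at 53.1 and 56.04 CPM in Confetti and 18.2 and 24.4 CPM in mutant cells. The part of these cells in the result was not tested. Pon1 was seen in 16% and 13.8% of thinned Confetti barcodes and in 0.269% and 0.0354% of mutant ones.

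Of 27 antioxidant genes, 5 rose and 4 fell (18.5% and 14.8%, near the 14.6% and 10.6% of all genes). Gsr, which recycles glutathione, was at 42.01 and 38.1 CPM in Confetti and 108 and 98.5 CPM in mutant cells (log2 fold change 1.37, SE 0.17, adjusted p = 0.00989). Gclm, of the enzyme that makes glutathione, was at 22.3 and 18.9 CPM in Confetti and 41.3 and 46.8 CPM in mutant cells (log2 fold change 1.09, SE 0.18, adjusted p = 0.017), and thioredoxin reductase (Txnrd1) at 33.04 and 31.1 CPM in Confetti and 58.9 and 61.4 CPM in mutant cells. Catalase (Cat) fell, with 285 and 326 CPM in Confetti and 90.8 and 73.1 CPM in mutant cells (log2 fold change -1.90, SE 0.21, adjusted p = 0.00704), and so did the extracellular enzymes Gpx3 (chromosome 11, 54902453 to 54910377), 94.7 and 94.7 CPM in Confetti and 2.66 and 0.644 CPM in mutant cells (log2 fold change -5.78, SE 0.63, adjusted p = 0.00704), and Sod3, 2.63 and 3.83 CPM in Confetti and 0.716 and 0.376 CPM in mutant cells. The well expressed Prdx1 was at 1293 and 1242 CPM in Confetti and 2116 and 1773 CPM in mutant cells and Gpx4 at 1342 and 1170 CPM in Confetti and 1106 and 1277 CPM in mutant cells, and neither passed.

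**Figure D4:**
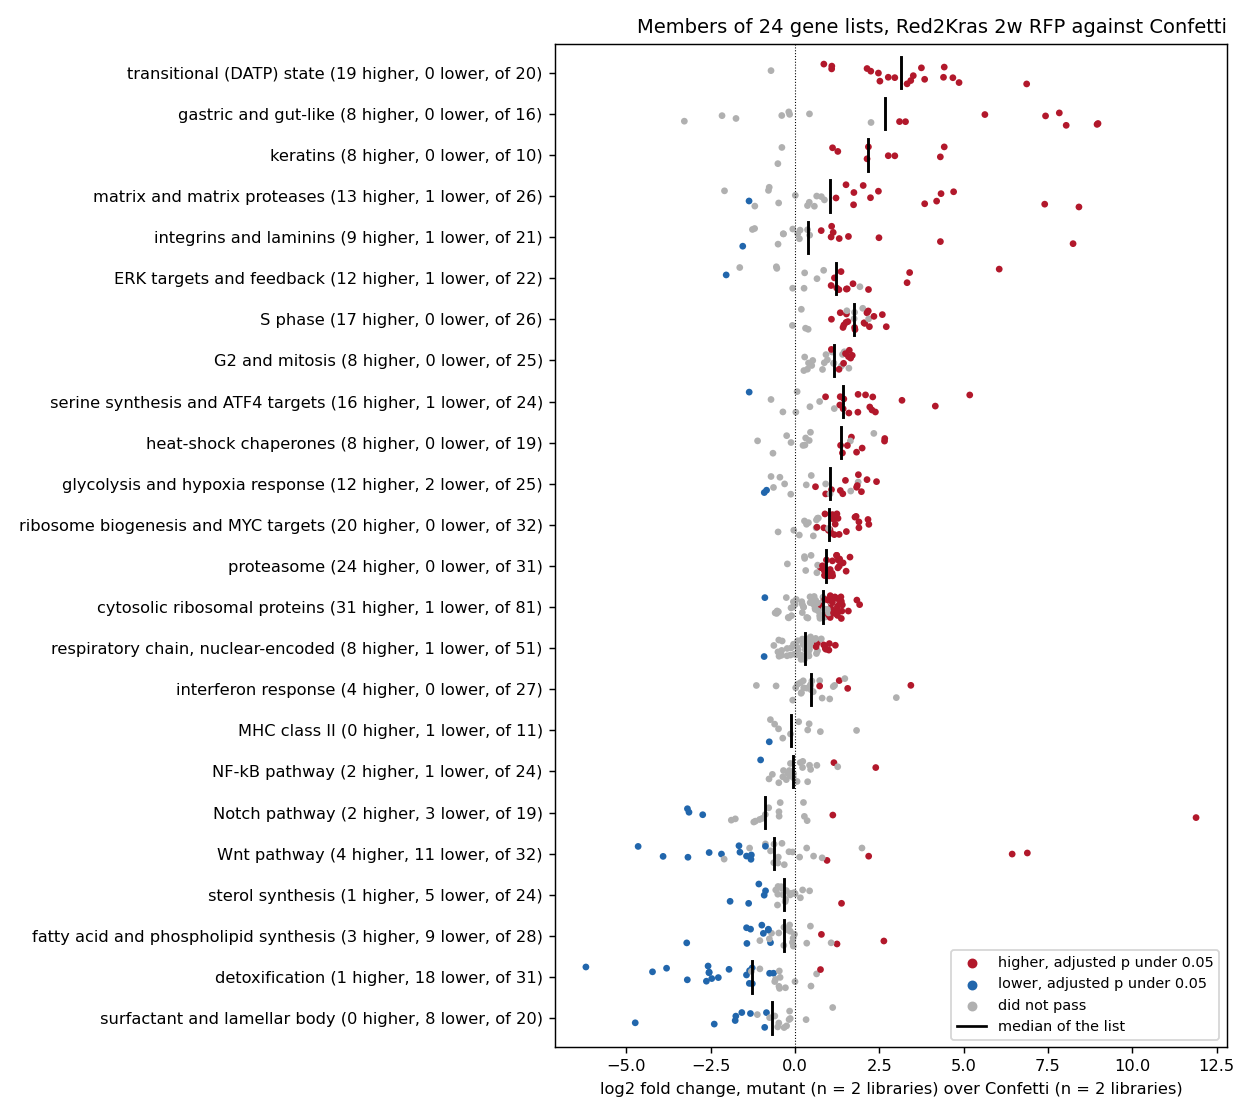
Log2 fold change, mutant over Confetti, of every tested member of 24 gene lists. Each point is a gene, coloured by whether it passed, genes without a count in Confetti are drawn at their lower bound, and a bar marks the list median. Medians ranged from -1.27 for detoxification to 3.14 for the transitional state, and lists such as the NF-kB pathway and MHC class II lay around zero.

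Among the cell cycle lists, genes of division and inhibitors of division both rose. Of 26 S phase genes, 17 rose and none fell (65.4% higher against 14.6% of all genes, median 1.76, or 1.11 without mutant replicate 1). The DNA helicase subunit Mcm3 was at 4.01 and 2.904 CPM in Confetti and 25.9 and 15.7 CPM in mutant cells (log2 fold change 2.59, SE 0.34, adjusted p = 0.0102), and the nuclease Fen1 at 3.198 and 3.300 CPM in Confetti and 19.3 and 13.5 CPM in mutant cells (log2 fold change 2.34, SE 0.27, adjusted p = 0.00766). Of 25 G2 and mitosis genes, 8 rose and none fell (32% higher against 14.6% of all genes, median 1.14, or 0.429 without mutant replicate 1). With the replicate block over 10 libraries, 4 of the S phase risers and 1 of the mitosis risers passed, against 1964 of all 3548 genes. Kif23, a motor of cell separation, was at 9.59 and 8.78 CPM in Confetti and 30.8 and 26.8 CPM in mutant cells (log2 fold change 1.65, SE 0.18, adjusted p = 0.00736) and was the 1 gene of these lists that passed over 6 libraries. The mutant libraries differed here: 19 of the 25 mitotic genes and 10 of the 26 S phase genes were more than 2-fold higher in replicate 1 than in replicate 2, and none the other way. Cdc20, the mitotic activator, was at 28.1 and 25.2 CPM in Confetti and 98.9 and 51.5 CPM in mutant cells, and rose. Ube2c, its partner, was at 51.6 and 45.7 CPM in Confetti and 198 and 69.8 CPM in mutant cells, Hmgb2 at 287 and 279 CPM in Confetti and 483 and 194 CPM in mutant cells and Pcna at 30.97 and 42.4 CPM in Confetti and 66.9 and 23.8 CPM in mutant cells, and these 3 did not pass. For Hmgb2 and Pcna, replicate 2 was below both Confetti libraries, and without replicate 1 the log2 fold change of Pcna was -0.60.

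Among 32 cyclin D, CDK inhibitor and p53 genes, 12 rose and 2 fell (37.5% and 6.25%, against 14.6% and 10.6% of all genes). Cdkn2a (chromosome 4, 89274471 to 89294653), whose locus encodes the inhibitors p16 and p19Arf that 3′ counting does not separate, had 11 UMIs in Confetti RFP, none in Confetti YFP and 39.8 and 67.5 CPM in mutant cells (log2 fold change 7.24, SE 0.78, adjusted p = 0.00694). The log2 fold change of Cdkn2a was 6.28 without Confetti YFP and 14.08 without Confetti RFP, where no Confetti UMI remained. Its neighbour Cdkn2b (chromosome 4, 89306299 to 89311039), which encodes p15, was at 6.08 and 3.89 CPM in Confetti and 36.9 and 97.3 CPM in mutant cells (log2 fold change 3.75, SE 0.54, adjusted p = 0.0126). Cdk6, the kinase that both inhibit, rose as well, from 4.51 and 4.88 CPM in Confetti RFP and YFP to 17.8 and 16.6 CPM in mutant replicates 1 and 2 (log2 fold change 1.87, SE 0.20, adjusted p = 0.00686). Gadd45g was at 358 and 354 CPM in Confetti and 394 and 234 CPM in mutant cells and Gadd45b at 291 and 278 CPM in Confetti and 196 and 139 CPM in mutant cells, and neither passed. Rbl2, a pocket protein of quiescent cells, fell with 18.1 and 17.8 CPM in Confetti and 9.06 and 9.37 CPM in mutant cells (log2 fold change -0.96, SE 0.18, adjusted p = 0.0206). Of the 32, Cdkn2a alone passed over 6 libraries (adjusted p = 0.0432). Of 27 apoptosis regulators, 9 rose and 3 fell (33.3% and 11.1%, against 14.6% and 10.6% of all genes, the latter near its share). The receptor Tnfrsf12a was at 66.5 and 67.9 CPM in Confetti and 270.5 and 402 CPM in mutant cells (log2 fold change 2.32, SE 0.25, adjusted p = 0.00694) and the death receptor Tnfrsf10b at 4.08 and 5.68 CPM in Confetti and 15.8 and 13.6 CPM in mutant cells. The fallers were 2 promoters of cell death, Bik with 73.4 and 67.3 CPM in Confetti and 23.6 and 17.04 CPM in mutant cells (log2 fold change -1.79, SE 0.22, adjusted p = 0.00921) and Bmf with 23.9 and 24.6 CPM in Confetti and 7.34 and 7.73 CPM in mutant cells (log2 fold change -1.69, SE 0.17, adjusted p = 0.00655), and the inhibitor of cell death Xiap, with 113 and 128 CPM in Confetti and 74.97 and 52.1 CPM in mutant cells.

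Wnt signals sustain AT2 stem cells, and activity of the pathway is commonly read from its feedback targets. Wnt pathway genes fell more often than they rose. Of 32 tested, 11 fell (34.4% against 10.6% of all genes) and 4 rose, with a median of -0.628. The fallers were the feedback genes Axin2, Notum, Nkd1, Znrf3 and Rnf43, the receptors Fzd2 and Fzd7, the factors Lef1 and Tcf7l2, the ligand Wnt3a and the secreted protein Dkk3. Notum, an enzyme that inactivates Wnt ligands, was at 6.14 and 6.93 CPM in Confetti and 0.833 and 0.591 CPM in mutant cells (log2 fold change -3.18, SE 0.35, adjusted p = 0.00704, adjusted p over 6 libraries 0.0453). Fzd7 was at 37.4 and 41.9 CPM in Confetti and 15.8 and 13.3 CPM in mutant cells (log2 fold change -1.44, SE 0.18, adjusted p = 0.00994), and Wnt3a at 2.44 and 1.32 CPM in Confetti and 0.102 and 0.0268 CPM in mutant cells (log2 fold change -4.65, SE 0.75, adjusted p = 0.0158). Axin2, the common reporter of the pathway, which was named here after its value was seen, was at 13.3 and 15.6 CPM in Confetti and 4.52 and 1.77 CPM in mutant cells (log2 fold change -2.18, SE 0.45, adjusted p = 0.0259). Wnt7a and Wnt10a moved the other way, Wnt7a from 0 and 0.330 to 10.7 and 17.96 CPM (log2 fold change 6.44, SE 0.78, adjusted p = 0.0091), while Wnt10a went from 1 UMI in Confetti to 5.03 and 3.41 CPM. Sp5, a direct target, rose as well, with 34.3 and 28.8 CPM in Confetti and 48.7 and 72.98 CPM in mutant cells. Ctnnb1, which encodes the mediator beta-catenin, was at 489 and 482 CPM in Confetti and 372 and 369.7 CPM in mutant cells and did not pass.

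Other developmental pathways gave mixed results. Of 19 Notch genes, 2 rose (Nrarp and Dlk1) and 3 fell, 10.5% and 15.8% against 14.6% and 10.6% of all genes. The receptor Notch2 was at 92.9 and 194 CPM in Confetti and 29.1 and 13.7 CPM in mutant cells (log2 fold change -2.74, SE 0.50, adjusted p = 0.0204), with the Confetti libraries unlike each other, and the target Hey1 at 3.76 and 3.96 CPM in Confetti and 0.482 and 0.376 CPM in mutant cells (log2 fold change -3.15, SE 0.39, adjusted p = 0.00956). Hes1, the other main target, was at 146 and 204 CPM in Confetti and 129.6 and 122 CPM in mutant cells and Jag1 at 114 and 183 CPM in Confetti and 59.8 and 20.2 CPM in mutant cells, and neither passed. Of 23 genes of the YAP-TEAD pathway, 6 rose and 1 fell (26.1% and 4.35%, against the same shares of all genes). Ankrd1, a common target of the pathway, had 1 UMI in Confetti and 10.9 and 16.6 CPM in mutant cells. Amotl2, another target, was at 82.3 and 104 CPM in Confetti and 62.9 and 28.4 CPM in mutant cells and did not pass. Of 34 TGF-beta, activin and BMP genes, 6 rose and 5 fell (17.6% and 14.7%, near the 14.6% and 10.6% of all genes). Id1, a target of BMP, was at 63.6 and 48.6 CPM in Confetti and 197 and 315 CPM in mutant cells (log2 fold change 2.19, SE 0.30, adjusted p = 0.011), its relative Id3 at 62.1 and 77.5 CPM in Confetti and 159 and 201 CPM in mutant cells (log2 fold change 1.37, SE 0.22, adjusted p = 0.0156) and the stress cytokine Gdf15 at 74.2 and 79.1 CPM in Confetti and 266 and 248 CPM in mutant cells (log2 fold change 1.75, SE 0.18, adjusted p = 0.00649). Bmp1, a protease of procollagen, fell with 316 and 392 CPM in Confetti and 78.6 and 65.8 CPM in mutant cells (log2 fold change -2.29, SE 0.22, adjusted p = 0.00522).

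Of 33 lung lineage and embryonic transcription factors tested, 6 rose and 6 fell (18.2% each, against 14.6% and 10.6% of all genes). The fallers included Nkx2-1, Foxa1, Foxp1, Etv5 and Tbx2, and the risers Hmga2, Hmga1, Sox9, Foxa3, Hnf4a and Runx2. Hmga2 (chromosome 10, 120361275 to 120476469), a chromatin protein of embryonic tissue, went from 0.125 and 0.462 CPM in Confetti RFP and YFP to 63.05 and 50.8 CPM in mutant replicates 1 and 2 (log2 fold change 7.60, SE 0.43, adjusted p = 0.00179). Sox9, a factor of the lung bud tip, was at 0.502 and 0.726 CPM in Confetti and 28.97 and 18.9 CPM in mutant cells (log2 fold change 5.28, SE 0.37, adjusted p = 0.00272), and Foxa3, a foregut factor, at 0.815 and 0.858 CPM in Confetti and 7.46 and 10.04 CPM in mutant cells. Foxp1 was at 198 and 207 CPM in Confetti and 123 and 108 CPM in mutant cells (log2 fold change -0.81, SE 0.18, adjusted p = 0.0293), while Id2 was at 276 and 275 CPM in Confetti and 311 and 454 CPM in mutant cells and Cebpb at 269.7 and 259 CPM in Confetti and 279.5 and 189 CPM in mutant cells, and neither passed. Over 6 libraries Hmga2, Sox9 and Hmga1 passed.

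Of 23 gastric and gut-like genes listed, 16 passed the count filter, and of these 8 rose and none fell. All 8 had at most 12 UMIs in Confetti, so most of them entered through the mutant libraries, and the share is no support for the list. Cathepsin E (Ctse) and the trefoil peptide Tff1, both made by the stomach lining, had no UMI in Confetti. Ctse was at 36.9 and 67.9 CPM in mutant cells and Tff1 at 59.4 and 29.4 CPM, at least 496-fold and 506-fold higher against a floor of 3 counts over both Confetti libraries. Gastrokine 2 (Gkn2), a protein of gastric surface cells that AT1 cells also make, was at 0.502 and 0.132 CPM in Confetti and 78 and 92.7 CPM in mutant cells (log2 fold change 8.04, SE 0.42, adjusted p = 0.0017). The other risers were Vil1, Vsig1, Anxa10, Hnf4a and Onecut2, the last also among the genes that passed over 6 libraries. Of the mucins that alveolar cells already hold, Muc1 was at 510.2 and 520.3 CPM in Confetti and 448 and 473 CPM in mutant cells and Muc4 at 20.4 and 21.1 CPM in Confetti and 32.7 and 22.97 CPM in mutant cells, and neither passed.

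Of 15 imprinted growth genes tested, 3 rose, all of them on chromosome 12, and 2 fell (20% and 13.3%, near the 14.6% and 10.6% of all genes). Dlk1 (chromosome 12, 109452823 to 109463336), a membrane protein related to Notch ligands, had no UMI in Confetti and 387 and 329 CPM in mutant cells, at least 3799-fold higher (adjusted p = 0.0015). Meg3 (chromosome 12, 109541001 to 109571726) and Mirg (chromosome 12, 109729764 to 109749460), are noncoding transcripts of the same cluster. Meg3 went from 4.83 and 5.61 CPM in Confetti RFP and YFP to 243 and 1002 CPM in mutant replicates 1 and 2 (log2 fold change 6.90, SE 0.80, adjusted p = 0.00803), and Mirg from 0.0627 and 0.198 to 6.91 and 20.3 CPM (log2 fold change 6.68, SE 0.84, adjusted p = 0.0097). Replicate 2 was higher for both noncoding genes and lower for Dlk1. Dlk1 was seen in no thinned Confetti barcode and in 9.78% and 10.1% of mutant ones, against 0.524% of Ptprc-positive barcodes. The fallers were Sgce, with 17.1 and 15.1 CPM in Confetti and 7.83 and 4.91 CPM in mutant cells, and the amino acid transporter Slc38a4, with 19.5 and 15.4 CPM in Confetti and 2.704 and 0.349 CPM in mutant cells. The other 10 did not pass, Gnas among them with 495 and 392 CPM in Confetti and 535 and 768 CPM in mutant cells.

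Of 24 NF-kB genes, 2 rose and 1 fell (8.33% and 4.17%, below the 14.6% and 10.6% of all genes), with a median from -0.315 without mutant replicate 1 to 0.265 without replicate 2. Relb was at 9.91 and 8.98 CPM in Confetti and 19.6 and 22.4 CPM in mutant cells (log2 fold change 1.15, SE 0.19, adjusted p = 0.0162), Traf1 fell with 36.4 and 36.96 CPM in Confetti and 16.6 and 19.5 CPM in mutant cells (log2 fold change -1.02, SE 0.17, adjusted p = 0.0178), and the inhibitor Nfkbia was at 255 and 244 CPM in Confetti and 306 and 173 CPM in mutant cells, with the Confetti values between those of the mutant libraries. Of 16 interleukin-1 family genes, 1 rose and 1 fell, 6.25% each, below those shares of all genes. Il1a rose at a low level, with 0.314 and 0.330 CPM in Confetti and 1.39 and 1.48 CPM in mutant cells, and the receptor Il1r1 fell, with 20.9 and 18.6 CPM in Confetti and 11.3 and 12.7 CPM in mutant cells (log2 fold change -0.72, SE 0.18, adjusted p = 0.04). Il33 was at 361 and 338 CPM in Confetti and 516 and 305 CPM in mutant cells. Of 11 MHC class II genes, 1 fell (9.09% against 10.6% of all genes). This was H2-Eb1, with 717 and 648 CPM in Confetti and 434 and 369.5 CPM in mutant cells, and Cd74 was at 6839 and 5782 CPM in Confetti and 4683 and 3607 CPM in mutant cells (adjusted p = 0.131). MHC class I gave 4 of 20 higher and interferon response genes 4 of 27, shares of 20% and 14.8% against 14.6% of all genes. The restriction factor Bst2 was at 59.8 and 54.98 CPM in Confetti and 164 and 174 CPM in mutant cells (log2 fold change 1.56, SE 0.17, adjusted p = 0.00727), while H2-K1 was at 812 and 745 CPM in Confetti and 1235 and 815 CPM in mutant cells and Irf1 at 62.8 and 67.98 CPM in Confetti and 58.2 and 30.2 CPM in mutant cells, and neither passed. Of 25 chemokine and colony-stimulating factor genes, 7 rose (28% against 14.6% of all genes) and 1 fell (4% against 10.6%). The neutrophil chemokine Cxcl3 was at 15.2 and 9.17 CPM in Confetti and 162 and 107 CPM in mutant cells (log2 fold change 3.46, SE 0.35, adjusted p = 0.00623), Cxcl5 at 2.88 and 4.03 CPM in Confetti and 51.2 and 19.4 CPM in mutant cells and the cytokine Lif at 0.564 and 0.462 CPM in Confetti and 28.3 and 20.3 CPM in mutant cells (log2 fold change 5.55, SE 0.32, adjusted p = 0.00181). Of 18 checkpoint and costimulatory genes, 7 rose (38.9% against 14.6% of all genes) and 1 fell (5.56% against 10.6%). Nt5e (CD73), which makes adenosine, was at 0.251 and 0.396 CPM in Confetti and 34.6 and 64.8 CPM in mutant cells (log2 fold change 7.25, SE 0.50, adjusted p = 0.00263), Cd38 at 2.44 and 2.84 CPM in Confetti and 26.8 and 57.1 CPM in mutant cells, and Cd200, an inhibitory ligand, fell with 337 and 400.5 CPM in Confetti and 120.4 and 76.04 CPM in mutant cells (log2 fold change -1.91, SE 0.28, adjusted p = 0.0132). Lgals1 was at 11.9 and 13.1 CPM in Confetti and 90.8 and 52.6 CPM in mutant cells but is also made by macrophages and mesenchyme.

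Granule proteases that are better known from lymphocytes and mast cells were measured in mutant cells. Of 17 listed genes only 4 passed the count filter, with at most 1 UMI in Confetti, so they entered through the mutant libraries and their values are a description. Gzme (chromosome 14, 56117626 to 56120625) was at 638 and 215 CPM, Mcpt8 at 249 and 48.9 CPM, Mcpt2 at 119 and 6.25 CPM and Mcpt1, which did not pass (adjusted p = 0.0506), at 65.9 and 2.87 CPM, so each was higher in replicate 1. These genes lie side by side on chromosome 14 and have close paralogs that may share counts. Lymphocyte markers summed to 1.89 and 0.832 CPM in the mutant libraries, and mast cell markers were not fixed as a list. S100 genes, small calcium-binding proteins, gave 5 of 14 higher (35.7% against 14.6% of all genes) and 1 lower (7.14%): S100a6 was at 416 and 341 CPM in Confetti and 5324 and 6801 CPM in mutant cells (log2 fold change 4.001, SE 0.28, adjusted p = 0.00295), S100a14 at 28.3 and 18.9 CPM in Confetti and 441 and 1149 CPM in mutant cells (log2 fold change 5.07, SE 0.56, adjusted p = 0.00715), and S100g fell, with 3751 and 3606 CPM in Confetti and 974 and 492 CPM in mutant cells (log2 fold change -2.33, SE 0.37, adjusted p = 0.0157). Of 29 lysosomal genes, 3 rose and 2 fell (10.3% and 6.90%, below the 14.6% and 10.6% of all genes). The protease Ctsl was at 94.2 and 85.8 CPM in Confetti and 314 and 513 CPM in mutant cells (log2 fold change 2.20, SE 0.29, adjusted p = 0.0103) and the cholesterol exporter Npc1 at 150.2 and 152 CPM in Confetti and 56.4 and 41.9 CPM in mutant cells (log2 fold change -1.62, SE 0.21, adjusted p = 0.0103).

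Among genes of ion and water transport, 4 of 20 rose and 5 fell (20% and 25%, against 14.6% and 10.6% of all genes). The epithelial sodium channel subunit Scnn1a, which clears alveolar fluid, was at 91.98 and 115 CPM in Confetti and 43.4 and 26.1 CPM in mutant cells, and the chloride channel Ano1 at 8.15 and 5.68 CPM in Confetti and 36.6 and 60.8 CPM in mutant cells. The water channels split, with Aqp3 at 0.439 and 0.264 CPM in Confetti and 3.96 and 10.1 CPM in mutant cells and Aqp1, which endothelium makes in quantity, at 9.84 and 12.6 CPM in Confetti and 2.84 and 2.74 CPM in mutant cells. Aqp1 did not pass with the marker-positive barcodes left out (log2 fold change -2.69). Of 15 iron genes, 3 rose and 2 fell (20% and 13.3%, near the 14.6% and 10.6% of all genes). The ferritin genes did not pass, with Fth1 at 3951 and 3166 CPM in Confetti and 4324 and 3979 CPM in mutant cells and Ftl1 at 2503 and 2208 CPM in Confetti and 2566 and 3054 CPM in mutant cells, while the exporter Slc40a1 rose at a low level, with 0.564 and 0.264 CPM in Confetti and 3.03 and 2.12 CPM in mutant cells. Of 5 resistin-like and chitinase-like genes, 2 rose and 1 fell (40% and 20%, against 14.6% and 10.6% of all genes). The rise of Retnlg passed over 6 libraries as well (4.45 and 6.27 CPM in Confetti and 61.6 and 34.03 CPM in mutant cells). Chia1, an acidic chitinase, fell with 579.8 and 404 CPM in Confetti and 111 and 57.5 CPM in mutant cells (log2 fold change -2.55, SE 0.38, adjusted p = 0.0137).

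Outside the lists, the steepest changes among genes of at least 100 CPM in the higher group included secreted and surface proteins. The serine protease Prss22 went from 0.251 and 0.198 CPM in Confetti RFP and YFP to 108 and 126 CPM in mutant replicates 1 and 2 (log2 fold change 8.997, SE 0.29, adjusted p = 0.0015). Kng2, a kininogen, was at 1.32 and 1.98 CPM in Confetti and 39.6 and 191 CPM in mutant cells and Pglyrp1, a peptidoglycan receptor, at 16.2 and 13.7 CPM in Confetti and 503 and 208 CPM in mutant cells, so the mutant libraries differed in opposite directions for these 2 genes. Phgr1 was at 20.9 and 19.9 CPM in Confetti and 382 and 384 CPM in mutant cells (log2 fold change 4.23, SE 0.20, adjusted p = 0.0015), Gsto1, a glutathione transferase, at 5.46 and 4.75 CPM in Confetti and 93.3 and 133 CPM in mutant cells, the Golgi protein Golm1 at 13.5 and 12.6 CPM in Confetti and 84.1 and 173 CPM in mutant cells, the sialyltransferase St3gal4 at 17.3 and 15.1 CPM in Confetti and 83.8 and 184 CPM in mutant cells and the tetraspanin Tspan8 at 132 and 106 CPM in Confetti and 671 and 1068 CPM in mutant cells. The falls were led by Cst8, a cystatin, at 159 and 121 CPM in Confetti and 12.3 and 4.32 CPM in mutant cells (log2 fold change -4.06, SE 0.53, adjusted p = 0.0103), the copper pump Atp7b at 90.6 and 125 CPM in Confetti and 14.1 and 2.79 CPM in mutant cells, and Bex2 at 433 and 373 CPM in Confetti and 60.3 and 15.8 CPM in mutant cells. The surface peptidases fell too, Anpep with 131 and 147 CPM in Confetti and 30.8 and 6.42 CPM in mutant cells and Mme with 300.2 and 269 CPM in Confetti and 70.8 and 27.1 CPM in mutant cells. The neuropeptide gene Npw was at 337 and 352 CPM in Confetti and 79.5 and 62.03 CPM in mutant cells and the secretoglobin Scgb1c1 at 193 and 182 CPM in Confetti and 42.5 and 30.2 CPM in mutant cells. AY036118 was at 120.2 and 81.9 CPM in Confetti and 11.6 and 26.1 CPM in mutant cells. Within these falls replicate 2 was the lower mutant library for all but AY036118.

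Over the 6 libraries of the 2-week harvest, 188 of 14779 genes (1.27%) passed. The lists named in this paragraph had from 4 (granule proteases) to 34 (actin) tested members, so the counts cannot be ranked against each other. Of the transitional list 11 of 20 tested members passed, and of the matrix list 4 of 26. The ERK target, EGFR family, apoptosis, integrin and lineage factor lists had 3 each. The ATF4, detoxification, Wnt, YAP-TEAD, junction, keratin, coagulation, gastric and granule protease lists had 2 each. The AT1, acute phase, chemokine, fatty acid oxidation, ribosome biogenesis, immediate-early, antioxidant, mitosis, CDK inhibitor, actin, Notch, TGF-beta, imprinted and resistin-like lists had 1 each. The remaining lists had none, and a gene in several lists counts in each. The tested granule proteases and most of the gastric risers entered the count filter through the mutant libraries, so their counts are a description.

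The mutant libraries differed from each other in part of the genes that passed. Of the 3548 genes, 185 were more than 2-fold higher in replicate 1 and 107 more than 2-fold higher in replicate 2, against 783 and 400 of all 14050 genes, and passing the test already favours genes whose replicates are alike. Among the risers these numbers were 58 and 101, and among the fallers 127 and 6, so replicate 2 was farther from Confetti in most of the genes that differed. The median log2 ratio of replicate 1 over replicate 2 was -0.237 for the risers and 0.294 for the fallers, against 0.0215 for all genes.

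The wildtype YFP+ cells of the same Red2Kras lungs at 2 weeks are given beside these values for a few genes, with CPM scaled over all 10 libraries and the difference between the colours not tested. For Ereg the 2w YFP libraries were at 7.53 and 11.5 CPM, between Confetti (0.474 and 0.623) and mutant cells (101 and 68.0). Cldn4 was at 9.94 and 40.1 CPM against 1.01 and 2.12 in Confetti and 144 and 222 in mutant cells. Dlk1 was at 5.09 and 56.7 CPM in 2w YFP, and Phgdh at 5.51 and 26.8, with replicate 2 the higher in each. The Ptprc filter removed 3.13% and 34.8% of the barcodes of 2w YFP replicates 1 and 2. Fn1 was at 4.04 and 42.6 CPM there and Vim at 13.3 and 110 CPM, and Phgdh, Fn1 and Vim were seen in 20.02%, 30.4% and 81.3% of Ptprc-positive barcodes. The part of other cells in the replicate 2 values was not tested. Some risers were not highest in mutant cells. Lcn2 was at 7067 and 6310 CPM in 2w YFP against 5557 and 3676 in mutant cells, and Lrg1 at 1891 and 2204 against 1456 and 1413. Retnla, a resistin-like protein, was at 1543 and 782 against 1198 and 402. Hspa1a was at 1827 and 439.99 against 1261 and 787, so 2w YFP was above mutant cells in replicate 1 only. The wildtype cells of these lungs were above Confetti in Hspa1a too (165 and 159). Pon1, at 14.1 and 7.77 CPM, and Gpx3, at 5.98 and 5.76 CPM, were far below Confetti in 2w YFP as well (106 and 77.0, 89.6 and 89.5).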

How the data were processed

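Barcodes by genes matrices of raw UMI counts, one per library, were deposited by the authors, who aligned the droplet 3′ reads to the mouse genome (mm10) with Cell Ranger. The file headers name version 5.0.1 and the processing notes 3.1.0, so the version is uncertain. The deposited matrices hold 42012 barcodes in 10 libraries, of which 20867 fall in the 4 libraries used. Barcodes were filtered as stated at the start of the report. No doublet caller was run beyond the limit of 50000 UMIs. Counts were summed per library in Python 3.11.15, without the 13 mitochondrial genes, and tested with edgeR 4.0.16 in R 4.3.3 (filterByExpr, TMM factors, quasi-likelihood F test, Benjamini-Hochberg adjustment over the genes tested, two-sided). DESeq2 1.42.0 was an alternative. The test was tried on simulated counts with known changes first. Genes at 0 in Confetti were set against a floor of 3 counts, and a gene with 1 count was given a ratio with an exact Poisson interval at the 95% level, which covers counting error only.

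The libraries, lists and tests were chosen with earlier results of these data known. For each list the text names up to 3 genes that passed in each direction by adjusted p and up to 2 abundant genes that did not. Outside the lists it names the 8 largest rises and the 8 largest falls among genes that passed with a mean of at least 100 CPM in the higher group. Thinned shares drew 2000 UMIs per barcode. Promoters were the RefSeq sequences of GRCm38.p6, found for 10656 of 14049 tested symbols. Alternatives to the test, scaling, filters, barcodes, depth and libraries were run, and their effects are given below. Some genes that the naming rule selects are not reported here.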

Additional observations from a re-analysis of the deposited data

How the results depend on the processing

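The count of 3548 genes depended most on which libraries estimated the spread. It was 188 over 6 libraries and 3 over 10, and 237 to 7921 when each of the 4 libraries was left out in turn, the low values coming without a Confetti library. All genes that passed in the main test and were tested over 6 or 10 libraries kept their sign there. No paired analysis was possible because the groups compared share fewer than 2 replicate numbers. A fit of all 10 libraries with the replicate number of the Red2Kras libraries as a replicate block gave 2163 genes, 1964 of them among the 3548, so the count of 3 over 10 libraries came without that block. The count was 1932 with no Ptprc filter, 2282 with barcodes thinned to 2000 UMIs and 2359 with a mean CPM of at least 10, a filter that also left 5726 genes whose groups did not overlap. It stayed within 1.5 times with DESeq2 (4236), RLE factors (3581), upper-quartile factors (3545), no count filter (4778), stricter cell filters (3711 and 3060) and thinned libraries (3477). The cause of these shifts was not tested, other than fewer genes or libraries where a setting removes them.

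Of the genes named in the text that passed, Thbd (log2 fold change 0.0030) and Cav1 (0.27) changed sign with barcodes positive for Ptprc, Pecam1, Col1a1 or Foxj1 left out. Of those that did not pass, Hspb1 was at -1.69 without mutant replicate 1 (up to 1.10 without replicate 2), and Pcna at -0.60 (up to 0.87). Of 918 list medians under the alternatives, 27 changed sign, 2 of them in a list with a median of at least 0.5, the mesenchymal-transition genes, at 2.20 with a mean CPM of at least 10 and 1.40 with no Ptprc filter against -1.83. Depth limits genes at a few UMIs in Confetti, such as Krt17 and Ksr1.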
